A study of Drosophila melanogaster with 2 samples.

Results

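Binding of the zinc finger protein Rotund was described at 10 genes of the epidermal growth factor receptor (EGFR) pathway of Drosophila melanogaster: the receptor gene Egfr, the ligand genes spi and vn, the ligand protease gene rho, the transcription factor genes pnt and aop, the inhibitor genes aos, sty and kek1, and the cell adhesion gene ed. The genes were taken by name, with earlier results of these data known, as 10 of the 13945 protein-coding genes on the main chromosome arms. A peak was given to a gene when its summit, the point of highest signal, lay in the gene body or up to 5 kb upstream of it. Of 3774 peaks called over both replicates on the arms, 41 met this rule. No peak was given to more than 1 of the 10 genes.

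Binding had been measured by ChIP-seq (sequencing of DNA recovered by chromatin immunoprecipitation) in whole pupae of a strain named rn-GFP, which carries an insertion that targets rn and expresses a fusion of Rotund (rn) with enhanced GFP. An antibody against GFP was used, after fragmentation by sonication. Both samples belonged to 1 group and were labelled as biological replicates 1 and 2 of that strain, so no condition could be compared with another. The pupal stage was unknown, the sex was not collected, and control libraries were not analysed here. Whole animals mix all tissues, so a peak does not show in which cells the fusion was bound, and a peak reports the tagged protein rather than the untagged one.

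In the EGFR pathway, secreted ligands bind a receptor tyrosine kinase that acts through Ras and the MAP kinase cascade on transcription factors of the ETS family. In flies the main ligand is made as a membrane-bound precursor and is released by proteases of the Rhomboid family, and several target genes encode inhibitors that feed back on the pathway. The pathway is known in imaginal discs and pupal tissues for its part in wing veins, leg patterning, and recruitment of cells in the eye, and Rotund is known for patterning the legs and other appendages.

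Of the 10 genes, 9 had at least 1 peak in the set called over both replicates, and kek1 had none. Over all protein-coding genes the share with a peak in the same window was 27.1%. Gene length moved with this share: it was 44.7% among genes at least as long as rho, the shortest of the 10, and 56.1% among genes of 20 kb or more, a length that 6 of the 10 genes reached, all 6 with a peak. In the authors' conservative set, 8 of the 10 genes had a peak, beside 26.4% of all genes. The set of replicate 1 alone gave 9 of 10 beside 19.4%, and that of replicate 2 alone gave 8 of 10 beside 18.3%. The part that gene length plays in the members' count was not tested beyond these shares.

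Each peak carries a signal, the strength the authors' caller gave it, which is used here to rank peaks within 1 list. A peak in the sets passed an irreproducible discovery rate (IDR) of 0.01, which is low for peaks that rank alike in a pair of call lists. The replicate values given below are signals of the overlapping peak in each replicate's own ranked list, which also holds peaks that did not pass. Signals are not scaled between lists, so a larger value in 1 replicate does not by itself show more binding there. A peak is described as called in a replicate when it shared at least 1 bp with a peak of that replicate's thresholded set. Summits no more than 500 bp from a transcript start in the gene models are called promoter summits. Coordinates are on dm6, counted from 1.

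The 41 peaks had a median signal of 68.4 (quartiles 58.0 and 122), below the median of 79.7 over all 3774 peaks (quartiles 60.1 and 119). The strongest peak of a gene ranked high at most of them: at Egfr, ed, sty, aop, vn and pnt it had a signal of 220 to 324 and a rank of 116 to 270 in the set. The strongest signal was 151 at spi and 122 at aos, and only 48.4 at rho. At 5 of those 6 genes the weakest peak had a signal of 24.3 to 60.5, and at sty it was 76.5.

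**Figure D1:**
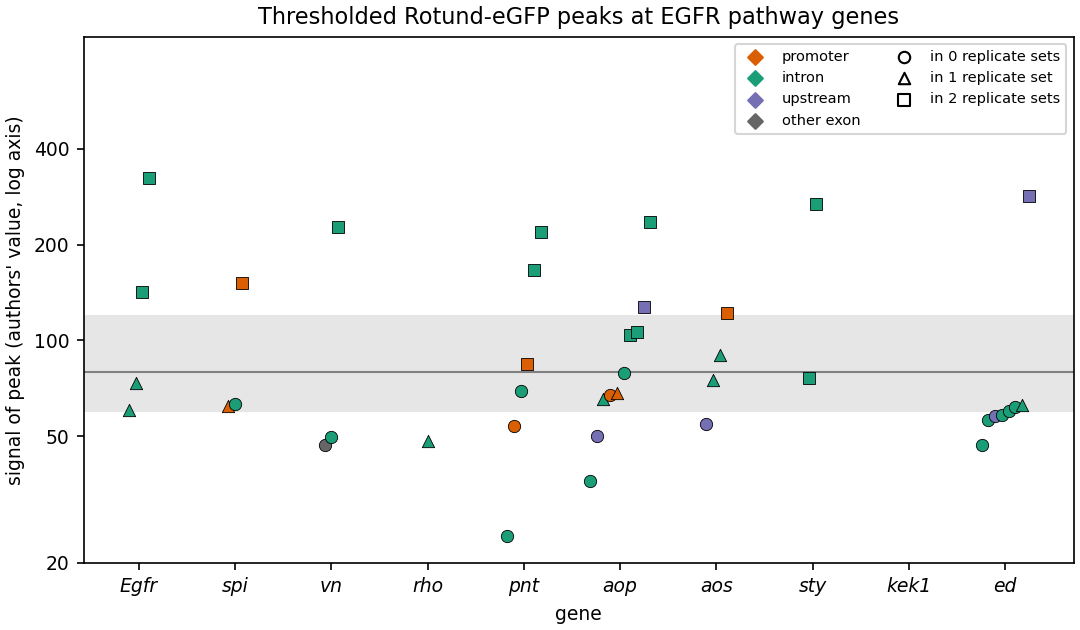
Signal of each of the 41 thresholded peaks (vertical log axis, the authors' value), by gene. Colour gives the place of the summit and shape the number of replicate sets that held the peak, and the grey band and line are the quartiles and median of all 3774 peaks. The strongest peaks of Egfr, ed, sty, aop, vn and pnt sit between 220 and 324, all of them called in both replicates, and kek1 has no point.

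The sequence at the strongest summit of each of 6 genes is shown, as the place of highest signal within that gene. That of ed is shown further on, with the ETS cores. Each runs from 50 bases before to 50 after the summit on the plus strand of the Release 6 genome (RefSeq), with the longest run of A and T in capitals. The windows are spi at 2L:19575739-19575839 and aos at 3L:16483938-16484038, both at promoters, then vn at 3L:5834405-5834505, pnt at 3R:23326451-23326551, aop at 2L:2163628-2163728 and sty at 3L:3418902-3419002, all in introns.
spi: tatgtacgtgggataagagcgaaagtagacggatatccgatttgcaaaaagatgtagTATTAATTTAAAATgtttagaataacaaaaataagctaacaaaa
aos: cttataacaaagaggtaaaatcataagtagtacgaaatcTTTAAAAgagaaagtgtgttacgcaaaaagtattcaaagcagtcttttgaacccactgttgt
vn: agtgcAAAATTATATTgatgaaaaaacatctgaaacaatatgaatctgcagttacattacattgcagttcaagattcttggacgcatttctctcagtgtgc
pnt: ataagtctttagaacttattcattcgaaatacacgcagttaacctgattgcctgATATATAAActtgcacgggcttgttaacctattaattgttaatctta
aop: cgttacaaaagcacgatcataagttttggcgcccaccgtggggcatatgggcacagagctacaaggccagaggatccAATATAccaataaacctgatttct
sty: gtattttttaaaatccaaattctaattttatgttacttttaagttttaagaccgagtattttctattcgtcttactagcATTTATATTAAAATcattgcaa
The longest A and T run was 14 bases at spi and sty, 11 at vn, 9 at pnt, 7 at aos and 6 at aop. Base composition around these summits was not alike: G and C made up 25.5% of the central 51 bases at spi and sty and 62.7% at aop.

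The ligand gene spi encodes Spitz, the main activating ligand, a TGF-alpha-like factor. It lies at 2L:19567900-19577315 on the minus strand (FBgn0005672), has 3 annotated transcript starts and held 3 peaks. The strongest, at 2L:19575641-19575936, had its summit 202 bp upstream of the middle start, with a signal of 151 (rank 625 of the set). Replicates 1 and 2 gave 88.6 and 61.9, and both called it. A second promoter peak lay 267 bp upstream of the inner start, at 2L:19572729-19573024, with a signal of 62.3. Its replicate signals were 29.7 and 34.0, and it was called in replicate 2 only. Between them, an intronic peak at 2L:19574408-19574703 had a signal of 62.9, with 37.5 and 25.2 in the replicates, and was called in neither. At the outermost start, the nearest thresholded summit was 1526 bp inside the gene, and a ranked peak 329 bp upstream of that start had a signal of 44.2 and an IDR of 0.632.

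The other ligand gene, vn, encodes Vein, a secreted neuregulin-like ligand known for its part in wing and notum patterning. It lies at 3L:5813338-5845664 on the minus strand (FBgn0003984), has 1 start and held 3 peaks, none of them at that start. A peak in its first intron at 3L:5834372-5834510, 11209 bp into the gene, had a signal of 228 (rank 253), with 133 and 95.2 in the replicates, and was called in both. The remaining pair was weaker and was called in neither replicate. A first-intron peak at 3L:5837995-5838290 had a signal of 49.6, with 29.5 and 21.9 in the replicates. A peak in a noncoding exon, at 3L:5843909-5844204 and 1607 bp into the gene, had a signal of 47.0, with 23.4 and 25.2, and was missing from the conservative set. The first-intron peak of 49.6 also had the lowest score of all peaks at the 10 genes, 832, where the lowest in the set was 830.

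The gene rho encodes Rhomboid, the intramembrane protease that cleaves the Spitz precursor. It lies at 3L:1463811-1468944 on the plus strand (FBgn0004635), inside the body of Ptp61F, a protein tyrosine phosphatase gene, so that its peak falls in both genes. The single peak, at 3L:1464544-1464839, had its summit in the first intron, 881 bp from the start. It ranked 3547 in the set, with a signal of 48.4. Replicate 1 called a pair of overlapping peaks there, and the one nearer the summit had a signal of 21.9. In replicate 2 the ranked peak had a signal of 27.2 but a score of only 45 on the scale that ends at 1000, and it was not called. The peak was also missing from the conservative set, so rho had the weakest support of the 9 genes with a peak.

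The gene Egfr encodes the only EGF receptor of the fly. It lies at 2R:21522420-21559977 on the plus strand (FBgn0003731) and has 2 annotated starts, neither with a promoter summit. All 4 of its peaks lay in intron 1, at 2R:21523243-21554829. The strongest peak of all 41, at 2R:21524201-21524371, had a signal of 324 (rank 116) and lay 1874 bp past the outer start. Its signals were 210 in replicate 1 and 122 in replicate 2, and it was called in both.

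The other 3 Egfr peaks stood around the inner start. A peak at 2R:21551389-21551684, 4894 bp past it, had a signal of 142 (rank 702), with 71.8 and 71.7 in the replicates, and was called in both. A neighbour at 2R:21550460-21550755 had a signal of 73.7, with 42.4 in replicate 1, where it was called, and 29.0 in replicate 2, where it was not. A peak 4068 bp before the inner start, at 2R:21542427-21542722, had a signal of 60.5. Here the call was in the other replicate: 24.3 in replicate 1 without a call and 44.0 in replicate 2 with one. All 4 were in the conservative set, and each was called in at least 1 replicate.

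**Figure D2:**
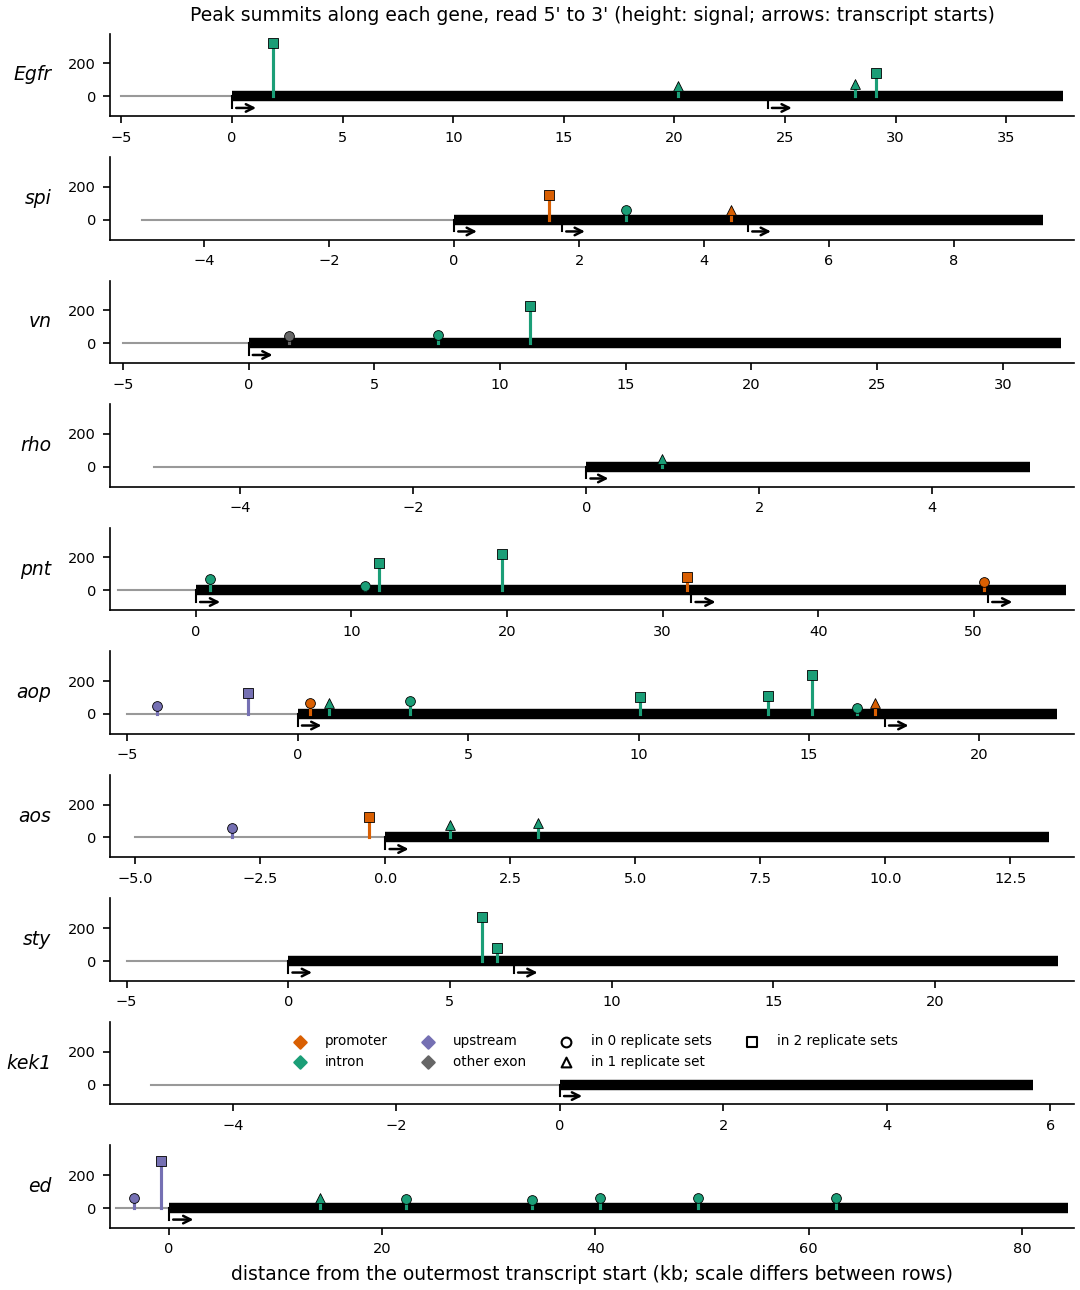
Position of each summit along its gene, read 5' to 3' (horizontal axis in kb from the outermost transcript start, with a scale that differs between rows) and its signal (height). Black bars are gene bodies, grey lines the 5 kb upstream, arrows the annotated starts, colours the places and shapes the number of replicate sets. The peaks of Egfr sit in its first intron away from both arrows, and the 10 peaks of aop spread over 21.1 kb.

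The gene pnt encodes Pointed, the ETS activator that carries the pathway's transcriptional output. It lies at 3R:23290231-23346167 on the minus strand (FBgn0003118) and held 6 peaks, of which 3 were called in both replicates. The strongest pair lay in intron 3. The first, at 3R:23326411-23326529, had a signal of 220 (rank 270), with 117 and 96.8 in the replicates. The second, at 3R:23334371-23334460, had a signal of 167 (rank 511), with 103 and 59.8. The larger value came from replicate 1 at both.

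Of the 3 annotated starts of pnt, the middle and inner ones had a promoter summit. The peak 299 bp upstream of the middle start, at 3R:23314466-23314761, had a signal of 84.1, with 36.0 and 48.8 in the replicates, and was called in both. The peak 289 bp upstream of the inner start, at 3R:23295379-23295674, had a signal of 53.8, with 30.7 and 18.4, and was called in neither and missing from the conservative set. At the outer start, the nearest summit was 920 bp inside the gene, in a first-intron peak at 3R:23345099-23345394. That peak had a signal of 69.1, with replicate values of 31.9 and 32.5, and was called in neither. The last peak, at 3R:23335176-23335471, had the lowest signal of the 41, 24.3 (rank 3701). Replicate 1 had no ranked peak there, the overlapping peak of replicate 2 had a signal of 22.6 with its summit 252 bp away, and the conservative set lacked it.

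The gene aop encodes Anterior open (Yan), the ETS repressor that competes with Pointed for binding sites and is switched off by MAP kinase. It lies at 2L:2156484-2178754 on the minus strand (FBgn0000097) and held 10 peaks, the most of the 10 genes. Only 16 protein-coding genes, or 0.115%, held 10 or more. The peaks spanned 21.1 kb with a median gap of 1814 bp between neighbouring summits (551 to 6754 bp). Per 10 kb of body and upstream window, aop held 3.67 peaks, whereas the other genes with a peak held 0.695 to 2.19. These values are for the set over both replicates. In the sets of replicates 1 and 2 alone, aop held 4 and 6 peaks, and at an IDR of 0.001 it held 4. The density of each gene under these alternatives was not computed.

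Peaks called in both replicates numbered 4 at aop. The strongest, at 2L:2163594-2163736 in the intron, had a signal of 236 (rank 242), with 111 and 117 in the replicates. A peak 1461 bp upstream of the outer start, at 2L:2180067-2180362, had a signal of 127, with 68.5 and 55.7. A further pair in the intron, at 2L:2164819-2165114 and 2L:2168696-2168780, had signals of 106 (50.8 and 55.6) and 104 (59.0 and 53.2). Neither replicate gave the larger value at all of these peaks.

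Both starts of aop had a promoter summit. One lay 277 bp upstream of the inner start, at 2L:2161656-2161951, and had a signal of 68.4, with replicate values of 31.7 and 42.0 and a call in replicate 2 only. The other lay 353 bp downstream of the outer start, at 2L:2178253-2178548, and had a signal of 67.3, with replicate values of 37.8 and 24.9 and a call in neither. Of the remaining 4 peaks, that at 2L:2177677-2177972 (65.3) was called in replicate 2 only. Those at 2L:2175306-2175601 (78.9), 2L:2182745-2183040 (49.9) and 2L:2162207-2162502 (36.2) were called in neither. The peak of 49.9 lay 4139 bp upstream, inside the noncoding RNA gene lncRNA:CR43751, and the peak of 36.2 was missing from the conservative set where peaks were matched by overlap.

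The gene aos encodes Argos, a secreted inhibitor that binds Spitz and is a known target of the pathway. It lies at 3L:16470386-16483650 on the minus strand (FBgn0004569), within the body of CG33158, in which all 4 of its peaks also fell. The 4 were all in the conservative set. The strongest, at 3L:16483840-16484135, had its summit 338 bp upstream of the only start, with a signal of 122 (rank 909). The replicate signals were 58.3 and 65.3, and both replicates called it. A pair in the first intron had signals of 89.8, at 3L:16480458-16480753, and 74.9, at 3L:16482208-16482503. Their replicate signals were 36.8 and 47.5 for the former and 35.1 and 37.5 for the latter, and both were called in replicate 2 only. The peak 3061 bp upstream, at 3L:16486563-16486858, had a signal of 54.7, with 25.1 and 29.6, and was called in neither. The larger value came from replicate 2 at all 4 aos peaks, in lists that are not scaled to each other.

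The gene sty encodes Sprouty, an intracellular inhibitor of receptor tyrosine kinase signalling. It lies at 3L:3401153-3424935 on the minus strand (FBgn0014388) and held 2 peaks, 459 bp apart in an intron and both called in both replicates. The one at 3L:3418878-3419032 had a signal of 268 (rank 178), with 160 and 113 in the replicates. The one at 3L:3418345-3418640 had a signal of 76.5, with 41.2 and 47.6. They lay 991 and 532 bp upstream of the inner start, outside the promoter width of 500 bp. A further peak with a signal of 111 lay 3067 bp beyond the 3' end of the gene and was not counted.

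The gene kek1 encodes Kekkon 1, a transmembrane protein with leucine-rich repeats and an immunoglobulin domain that binds the receptor and inhibits it. It lies at 2L:12817000-12822787 on the minus strand (FBgn0015399) and had no peak in the set over both replicates, the conservative set or either replicate's set. Of 15 ranked peaks in its window, the highest was at 2L:12823641-12823936, 1002 bp upstream, with a signal of 45.6, replicate signals of 21.8 and 25.5, a score of 711 and an IDR of 0.0194. The nearest thresholded summits lay 181 kb upstream and 94.9 kb downstream of the gene. The ranked peak upstream of kek1 and one at pnt with a score of 771 and a signal of 44.6 were closest below the threshold at the 10 genes.

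The gene ed encodes Echinoid, an immunoglobulin-domain adhesion protein known to antagonise receptor signalling in the eye. It lies at 2L:4031377-4115749 on the plus strand (FBgn0000547), is the longest of the 10 genes at 84.4 kb, and held 8 peaks. A single one was called in both replicates: the peak at 2L:4030561-4030716, 752 bp upstream of the only start, with a signal of 284 (rank 157) and replicate values of 142 and 141. The others had signals of 47.0 to 62.9, all below the set's median. The peak of 62.9, in an intron at 2L:4045432-4045727, was called in replicate 1 (40.8) and not in replicate 2 (22.9). The last 6, called in neither replicate, were 5 in introns 22279 to 62530 bp into the gene and 1 that lay 3262 bp upstream. The weakest of them, at 2L:4065281-4065576, was missing from the conservative set.

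By place, 28 of the 41 summits lay in introns, 7 at promoters, 5 upstream and 1 in a noncoding exon. Under the rule used for all peaks, which takes any gene into account, 29 of the 41 were intronic (70.7%) and 3 intergenic (7.32%), beside 42.8% and 15.1% of all 3774 peaks. The choice of peaks in gene bodies and just upstream itself favours introns and leaves out most intergenic peaks. The promoter share was 17.1% (95% Wilson interval 8.53 to 31.3), and that of all 3774 peaks was 38.5% (37.0 to 40.1). It depended on the promoter width: within 250 bp of a start it was 2.44% at the 10 genes and 28.8% over all peaks, and within 1000 bp it was 39.0% and 49.7%. With promoter summits counted as well, 35 of the 41 summits (85.4%) lay inside an intron of some protein-coding transcript, beside 56.4% of all peaks. A first intron held 22 (53.7%, beside 38.4%), and an intron longer than 10 kb held 30 (73.2%, beside 32.0%). Most of the 10 genes are long, and the part of gene length in these shares was not tested. Intronic peaks had a median signal of 71.4 (24.3 to 324), promoter peaks 68.4 (53.8 to 151) and upstream peaks 58.0 (49.9 to 284).

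Promoter summits were found at 7 of the 17 annotated starts, of spi, pnt, aop and aos. Of these, 6 lay between 202 and 338 bp upstream and the other 353 bp downstream, so none was within 200 bp of a start. Over the whole set, 1453 promoter summits had a median position 112 bp upstream (quartiles 197 and 22 bp upstream), and 15.6% (13.8 to 17.6) lay in the band from 202 to 338 bp upstream. The band was drawn from the members' own values, so its share over all peaks is a description only. No start of another gene lay within 500 bp of any of the 41 summits.

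**Figure D3:**
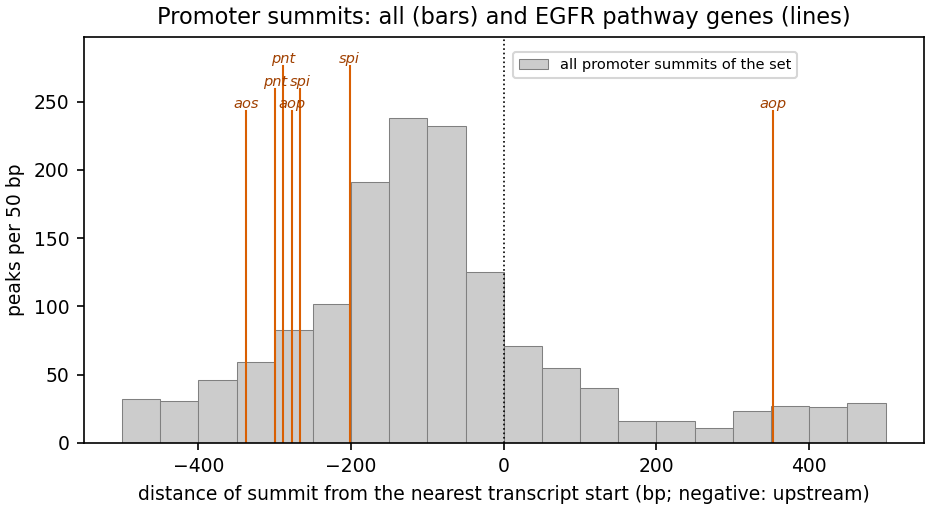
Distance of promoter summits from the nearest transcript start (horizontal axis in bp, negative upstream) for all 1453 promoter summits of the set (bars, peaks per 50 bp) and for the 7 at the EGFR pathway genes (labelled lines). The bars are highest just upstream of the start, and 6 of the lines stand 202 to 338 bp upstream.

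The peaks with a signal of at least 200 had no summit within 500 bp of a start, while the strongest peaks of spi and aos, both below that signal, did. Of 6 peaks with a signal of at least 200, 5 lay in introns and that of ed upstream, whereas 54.5% (49.2 to 59.7) of the 343 peaks of that signal in the whole set were promoter peaks. This contrast depends on the promoter width of 500 bp. The summits of ed (284) and sty (268) lay 752 and 991 bp upstream of a start, inside a width of 1000 bp. The share of the 343 peaks at that width was not computed. The 6 peaks with a signal of at least 200 were narrow. All but 422 of the 3774 peaks were 296 bp wide or wider, and 8 of the 41 were narrower, with signals of 104 to 324. None of those 8, which include the ed and sty peaks, was within 500 bp of a start, beside 46.4% of the 422. Width moved with signal over the whole set, since 89.8% of the 343 peaks with a signal of at least 200 were narrow, and its part in the place of the summits was not tested.

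Support from the replicates rose with signal. Of the 41 peaks, 15 were called in both replicates (36.6%, interval 23.6 to 51.9), beside 41.5% of all 3774 peaks. A further 9 were called in 1 replicate and 17 in neither (41.5%), beside 31.2% and 27.2% of all peaks. Peaks called in both had signals of 76.5 to 324 (median 151), those called in 1 had 48.4 to 89.8 (median 65.3), and those called in neither had 24.3 to 78.9 (median 56.3). All 11 peaks at or above the set's upper quartile were called in both, as were 926 of the 944 such peaks of the set. The conservative set overlapped 35 of the 41, or 85.4%, beside 85.2% of all peaks. Most of the 17 peaks called in neither replicate were among these 35.

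Across the 40 peaks with a ranked peak in both replicates, the replicate signals had a Pearson correlation of 0.917 and a Spearman correlation of 0.747. Over 3702 such peaks of the set these were 0.914 and 0.667. Each value comes from the same pair of libraries, and peaks are not independent replicates. Replicate 1 gave the larger value at 23 of the 40 peaks (57.5%), beside 61.9% of all, in lists that are not scaled to each other.

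**Figure D4:**
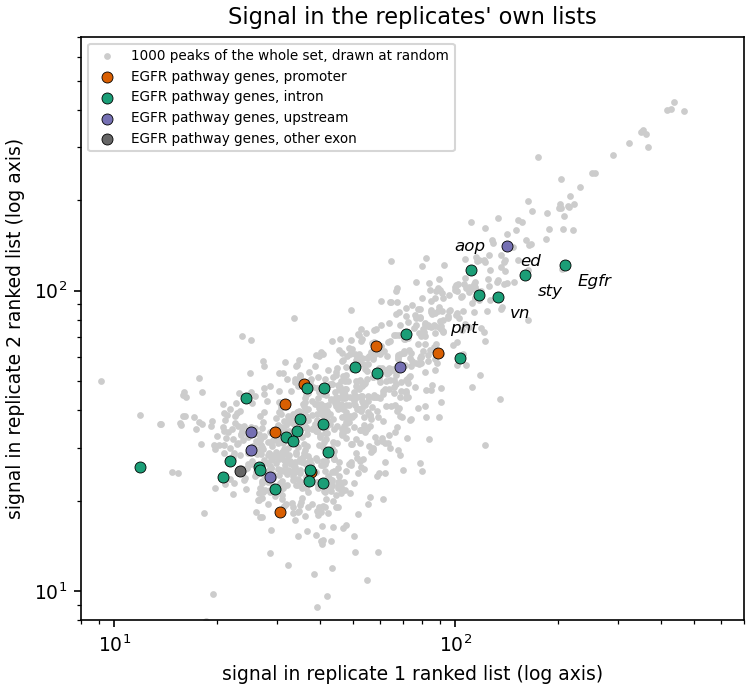
Signal in the ranked list of replicate 1 (horizontal log axis) against that of replicate 2 (vertical log axis) for 40 peaks at the EGFR pathway genes (coloured by place) and for 1000 peaks drawn from the whole set (grey). The labelled peaks, with signals of 220 to 324 over both replicates, lie at the upper right.

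The 10 windows together covered 339.9 kb and held 1.21 peaks per 10 kb, beside 0.282 over the main arms. The arms also hold sequence outside any such gene window, so these values are not like for like. The density over the windows of other genes was not computed. The ranked list held between 10 and 110 peaks per gene window, so thresholded peaks were a minority at each gene. No ranked peak at or above the threshold score was missing from the set at any of the 10 genes.

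Around the summits, G and C made up a median of 35.3% of the central 51 bases at the 41 peaks and 31.4% over all peaks. Among peaks narrower than 296 bp the medians were 40.2% for the 8 at the pathway genes and 29.4% for the set. In the window from 50 bases before to 50 after each summit, searched on both strands, the A-rich word TTAAAA was found at 10 of 41 summits (24.4%) and at 30.4% of all. The words AAAAAAA (12.2% and 17.7%) and TAATTA (2.44% and 8.90%) were found at 5 and 1 of the 41. CACACA was found at 3 (7.32% and 6.89%), and TATCGATA at none, beside 0.768% of all. The CACACA count moved with the window: it was 1 (2.44%, beside 3.37% of all) within 25 bases of the summit and 10 (24.4%, beside 17.0%) within 100, and TATCGATA was then found at 1 (2.44%, beside 1.88%). At least 1 of the 7 words searched, some of which can overlap, was found at 22 of the 41 summits, or 53.7%, the same share as over all peaks.

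The cores bound by ETS factors, CCGGAA and CAGGAA, were found at 2 (4.88%) and 4 (9.76%) of the 41 summits and at 1.46% and 3.47% of all. One or both were found at 6 of 41 (14.6%, interval 6.88 to 28.4), beside 4.90% of all peaks. Within 25 bases of the summit CAGGAA was found at only 2 (4.88%, beside 1.62% of all) and either core at 4 (9.76%, beside 2.44%). Within 100 bases either core was found at 6 (14.6%, beside 10.2%). In the window of 50 bases either side, the 6 lay at only 2 genes: 4 of the 10 peaks of aop and 2 of the 8 peaks of ed, both upstream of its start. The interval counts each peak as independent and does not cover variation between genes. The words searched were chosen with earlier results of these data known. The strongest aop peak (236) held no core, and the aop peak of 36.2, which held one, was called in neither replicate. The part of base composition in these counts was not tested. At the other genes with a peak, these letters were not in the windows. The 6 windows are shown because they hold every such match, with the core or its reverse complement in capitals, on the plus strand of Release 6 (RefSeq). They are aop at 2L:2164917-2165017, 2L:2168650-2168750, 2L:2161754-2161854 and 2L:2162305-2162405, then ed at 2L:4030575-4030675 and 2L:4028065-4028165, in that order.
aop: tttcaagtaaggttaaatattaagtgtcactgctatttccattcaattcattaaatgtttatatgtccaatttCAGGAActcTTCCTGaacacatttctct
aop: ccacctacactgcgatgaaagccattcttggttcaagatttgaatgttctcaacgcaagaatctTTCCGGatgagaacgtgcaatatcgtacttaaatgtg
aop: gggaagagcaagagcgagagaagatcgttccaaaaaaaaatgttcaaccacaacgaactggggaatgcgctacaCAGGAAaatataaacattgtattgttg
aop: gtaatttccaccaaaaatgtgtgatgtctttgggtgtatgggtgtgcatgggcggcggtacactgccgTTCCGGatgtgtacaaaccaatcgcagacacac
ed: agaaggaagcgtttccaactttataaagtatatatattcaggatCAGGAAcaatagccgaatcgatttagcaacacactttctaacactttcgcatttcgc
ed: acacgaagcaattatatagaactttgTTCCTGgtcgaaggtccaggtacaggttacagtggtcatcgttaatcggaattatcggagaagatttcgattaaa
The first aop window holds the core on both strands, 3 bases apart. In the first ed window, at the strongest peak of that gene, the core lies 3.5 bp from the summit, the closest of the 6. A match is a description of the letters and does not show that an ETS factor was bound.

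A list of 26 other genes was drawn from the known parts of the pathway, with earlier results of these data known. Of these 26 genes, 15 had a peak in the same window (57.7%, beside the 27.1% of all genes), with 46 peaks in all. Their bodies ran from 1.435 to 88.8 kb, and the 27.1% is not matched to them in length. In the conservative set these numbered 15, and in the replicates' own sets 14 and 12. Within the core kinase cascade the peak counts differed. Raf, the kinase below Ras, held 11 peaks with a strongest signal of 390, while Ras85D, the kinases Dsor1 (MEK) and rl (ERK), and the scaffold ksr held none. The exchange factor gene Sos also held none, and drk, its adaptor, held 2, the stronger with a signal of 196. Gene bodies were 48.4 kb for Raf and 54.5 kb for rl, but only 2.51 to 7.62 kb for Ras85D, Dsor1, ksr, Sos and drk. The part of gene length in these counts was not tested.

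Among genes for ligands and their processing, Krn held 3 peaks (strongest signal 90.4), S, which encodes the chaperone Star, held 3 (109), ru, a rhomboid protease gene inside Ptp61F, held 6 (147), stet held 1 (60.3), and cni held 1 (54.5), which lies in the body of cact. The ligand gene grk and the protease gene rho-4 held none. Among inhibitors and nuclear regulators, the repressor gene cic held 6 (180), edl, whose product binds Yan and Pointed, held 1 (378), Gap1, annotated as RasGAP1, held 3 (212), and the MAP kinase phosphatase gene Mkp3 held 1 (139). The genes Cbl and PTP-ER held none, and neither did fred and kek2, the relatives of ed and kek1.

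Among the other adaptors and phosphatases, csw held 3 peaks (139), Shc held 2 (516), cnk held 2 (207) and dos held 1 (69.8). The strongest peaks of Shc and Krn, at their own promoters, were also promoter peaks of a neighbour: Atat for Shc, and CG7484 and Ndfip for Krn. Those of cnk and dos lay 1046 and 2002 bp upstream of these genes and were promoter peaks of l(2)k01209 and RpL8 respectively. These 4 peaks cannot be given to the pathway gene alone.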

How the data were processed

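The authors' narrowPeak lists on dm6, per the labels, were used: a ranked and a thresholded list for each of 2 replicates, and ranked, thresholded and conservative lists over both. The deposited signal is the strength the authors' caller gave each peak, in a unit not stated, and is not scaled between lists. The deposited score is the authors' IDR rescaled to at most 1000, with its −log10 beside it in the deposited ranked lists, and no thresholded list went below a score of 830. The aligner and caller: not given in the sources used here. Reads were not part of these files, which leaves the read depth unknown, and Wilson intervals (95%) cover counting error over peaks only. There were 3615 peaks in the conservative set, 2377 in that of replicate 1 and 2114 in that of replicate 2. Of 3777 peaks over both replicates, the 3774 on the 6 main arms were used.

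Summits were placed on gene models of Ensembl release 115 (BDGP 6.54). All 10 members had the same bounds in RefSeq. Placement was tested on simulated data. Tables were made with pandas 2.3.3 and numpy 2.4.6 under Python 3.11.15, intervals with scipy 1.17.1 and figures with matplotlib 3.10.9.

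No test was run, since there was 1 group and no other condition. The members, the list of 26 further genes and the 7 words were chosen with earlier results of these data known. All members were named with every peak, and of the further genes those with a peak and its strongest. Those without a peak were named after their values were seen. Alternatives tried were each replicate alone, the conservative set, an IDR of 0.001, the ranked list at the threshold score, other gene windows (1 kb upstream, gene body only, any overlap), promoter widths (250 and 1000 bp), replicate overlaps (at least 50% of both peaks, summits within 100 bp) and motif windows (51 and 201 bp).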

Additional observations from a re-analysis of the deposited data

How the results depend on the processing

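With replicate 1 or replicate 2 left out, the peaks at the 10 genes fell from 41 to between 19 and 21, and their density from 1.21 to between 0.559 and 0.618 per 10 kb. At an IDR of 0.001 they numbered 16, or 0.471 per 10 kb. Of these, 15 were called in both replicates, and 55.9% of all peaks passed, beside 39.0% at the 10 genes. The promoter share of 17.1% was 2.44% within 250 bp of a start and 39.0% within 1000 bp. Of the 26 other pathway genes, 9 had a peak in the gene body alone, beside 15 with the upstream window. The share of all protein-coding genes with a peak in the body alone was not computed. With motif windows of 25 and 100 bases either side in place of 50, the share of the 41 summits with CACACA was 2.44% and 24.4%, where it had been 7.32%, and that with CAGGAA was 4.88% and 12.2%, where it had been 9.76%. The members with a peak numbered 8 to 9 under every alternative run. No paired analysis was possible because there was 1 group and nothing to pair it with. The unknown read depth, the unknown stage, the mixture of tissues and the unused controls limit all values. Of the 41 peaks, 17 were called in neither replicate alone, though most of these overlapped a peak of the conservative set.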
